A study of Mus musculus with 2 samples.

Results

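The genes described here encode the laminin chains and the integrin subunits of the mouse. They were taken from the gene names on the array, as names made of Lama, Lamb or Lamc and a number, or names beginning with Itga or Itgb. This gave 58 of the 39429 probes and 43 of the 31870 gene names. The 43 genes were 11 laminin chains, 27 integrin subunits (18 α and 9 β) and 5 genes that are named after an integrin but encode no subunit. Laminin β1 was listed under the old name Lamb1-1, and Itgb1bp3 is now called Nmrk2.

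The RNA came from dissected ureters of E14.5 embryos of NMRI mice, and was hybridised to 2 dye-swapped 2-colour Agilent arrays. Embryos called Gata2cKO carried 1 Tbx18 allele with Cre recombinase and had both copies of Gata2 floxed. Gata2 encodes a transcription factor with GATA-type zinc fingers. Controls had no Cre allele at Tbx18, and their label gives 1 floxed Gata2 allele and leaves the other unstated, so Cre and the loss of Gata2 were not separated. Both RNAs were from females on array 1, with the Gata2cKO RNA in Alexa Fluor 647, and from males on array 2, with it in Alexa Fluor 555. Tbx18 is active in the mesenchyme around the ureter, which forms the smooth muscle and connective tissue, so the Cre allele is not expected to act in the epithelium. The labels do not say how many embryos gave each RNA.

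Laminins are large secreted proteins in which 1 α, 1 β and 1 γ chain join in a cross-shaped molecule, and they form a sheet-like network in basement membranes. Integrins are receptors of 1 α and 1 β subunit that span the cell membrane and tie the matrix outside to actin or keratin filaments inside. In the ureter, basement membranes underlie the epithelium (urothelium) and surround smooth muscle cells, blood vessels and nerves. Cells of each kind carry their own set of integrins, which differ in the matrix proteins they bind.

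On both arrays, 66% to 69.4% of probes were well above background, and 20503 genes with such a probe on both arrays in at least 1 group were tested. For the targeted gene, Gata2, the arrays gave log2 ratios of 0.33 and 0.54, both on the high side in the RNA labelled Gata2cKO (mean 0.44 ± 0.15, SD, n = 2). The sources used here do not give whether its probe lies in the deleted part, so it checks nothing about the labels. A ratio is always Gata2cKO over control, on the log2 scale after normalization, and a level is a probe's normalized log2 intensity, which can be compared between RNAs but not between probes. Nothing in the labels says whether the RNAs came from separate litters, so p-values rest only on spread between these 2 arrays. That spread is taken from the gene itself (1 degree of freedom) and from all genes tested (4.68 prior degrees of freedom). Dye and sex changed together between the arrays and cannot be told apart. In whole ureters, fewer cells of a type and less RNA per cell cannot be told apart either.

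The probes on which the results turned are shown by the first 30 of their 60 bases, on the + strand of mm9. The Lamc3 probe is shown because its gene differed most, the Itga4 and Itgb1 probes because they gave the next largest mean and the largest gap between arrays, and the Itgam probes because they disagreed. Capitals mark an unbroken run of the letters CA, and the first probe given for a gene is the one that was tested.
Lamc3, chr2:31801996-31802055: ccccaggtcccagaggaactgattgtgatt
Itga4, chr2:79173193-79173252: gtgtgtggaatgcattataaagatctaaca
Itga4, second probe, chr2:79153985-79155115: taagatcttagacctggaagagaaacaaat
Itgb1, chr8:131250081-131255976: gacacgggtgaaaatcctatttacaagagt
Itgb1, second probe, chr8:131246349-131246408: tggacgcttactgcaggaaagagaacagtt
Itgam, chr7:135261755-135261814: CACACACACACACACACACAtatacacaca
Itgam, probe 2, chr7:135212140-135212199: tgttaaccagacaggtgccctctaccagtg
Itgam, probe 3, chr7:135260275-135260334: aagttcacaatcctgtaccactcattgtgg
The second Itga4 probe and the tested Itgb1 probe span 1131 and 5896 bases of the genome with 60 bases of their own, so each joins sequence from both sides of an intron. The other probes were not assigned to an exon or a UTR, since no annotation of that build was used here.

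Among laminin and integrin genes, the γ3 laminin chain stood out, and no other member was 1.5-fold higher or lower on both arrays. Of the 43 genes, 36 had a probe well above background on both arrays in a group and were tested: all 11 laminin chains, 21 of 27 integrin subunits and 4 of the 5 others. Each tested probe of these 36 was well above background in all 4 RNAs. Of the 36 genes, 0 passed an adjusted p of 0.05 (limma, Benjamini-Hochberg over all genes), while 2 had an unadjusted p under 0.05, Lamc3 and Itga4. Over all genes tested, 0.0878% passed the adjusted threshold (18 genes) and 7.17% the unadjusted one. At least 1.5-fold higher on both arrays was 1 member, where the background was 0.273%, and 0 members were 1.5-fold lower, where the background was 0.439%. Higher on both arrays were 14 of the 36 genes (38.9%), against 27% of all genes. Lower on both were 11 (30.6%), against 26.2%, and 11 (30.6%) had opposite signs, against 46.8%. The share that was lower was thus near the background.

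**Figure D1:**
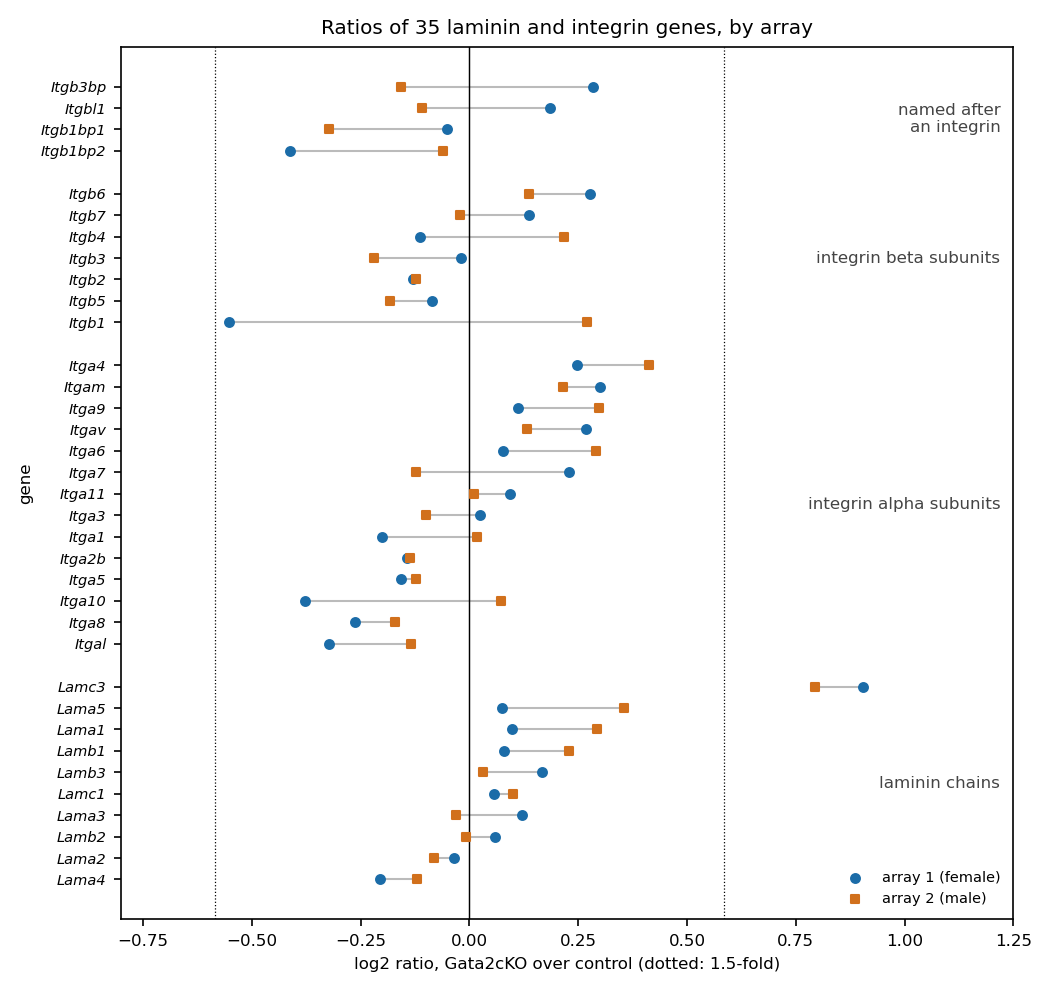
Log2 ratio of Gata2cKO over control for 35 of the genes tested, with 1 point for each array (circles, array 1, female; squares, array 2, male) joined by a line, and dotted lines at 1.5-fold. Lamc3 is the only gene with both points past a dotted line, and the points of Itgb1 lie on opposite sides of 0, at -0.55 and 0.27.

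Lamc3 encodes the γ3 chain, which takes the place of γ1 in a few laminins. Its level was 11.04 in the female control and 11.12 in the male control. In the RNA labelled Gata2cKO it was 11.94 in females and 11.92 in males. Both Gata2cKO levels lay above both control levels, and the difference was of like size in both dye orientations. The log2 ratios were 0.90 and 0.80 (mean 0.85 ± 0.077, SD, n = 2), which is 1.80-fold. The adjusted p was 0.0871 (limma, Benjamini-Hochberg; unadjusted p = 0.00028), rank 66 of 20503 genes by p, so Lamc3 missed the threshold. Its side of the threshold depended on the processing: the adjusted p was 0.0319 from the scanner software's processed signals and 0.00085 with a trended and robust prior, but 0.247 from the authors' deposited table and 0.9999 with median centring (all limma). The mean ratio lay between 0.83 and 1.36 under the 8 alternatives, the highest being the authors' deposited table, with 1.08 and 1.65 on the arrays. Only 1 probe of Lamc3 was on the array, so no second probe measured it.

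The genes next to Lamc3, in the order of RefSeq's GRCm38.p6 annotation, did not share a ratio of that size. Qrfp and Fibcd1, before it, were not well above background. Aif1l, which lies next after it, had ratios of 0.29 and 0.37 (mean 0.33 ± 0.055, SD, n = 2; adjusted p = 0.566, limma). Nup214, the next gene, had ratios of -0.06 and -0.08.

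**Figure D2:**
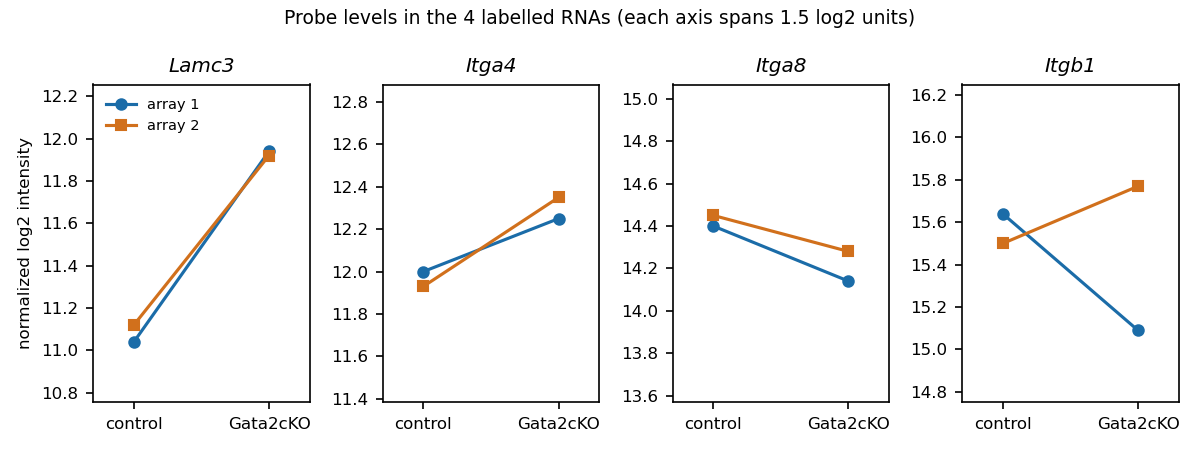
Normalized log2 intensity of the tested probe of Lamc3, Itga4, Itga8 and Itgb1 in control and Gata2cKO RNA, with a line for each array (circles, array 1; squares, array 2) and every axis spanning 1.5 log2 units. Both lines go up for Lamc3 (from 11.04 and 11.12 to 11.94 and 11.92) and, less steeply, for Itga4, both go down for Itga8, and the lines cross for Itgb1.

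Lamc1, the γ chain of most laminins, differed little between the groups. Its ratios were 0.06 and 0.10 (mean 0.08 ± 0.031, SD, n = 2), with levels of 15.26 and 15.32 in controls and 15.31 and 15.43 in Gata2cKO RNA. The difference between its ratio and that of Lamc3 was not tested.

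The 5 α chains, which carry most of the binding sites for receptors, split by sign. Lama1, an α chain of early epithelial basement membranes, had ratios of 0.10 and 0.29 (mean 0.20 ± 0.14, SD, n = 2). Lama5, the main α chain of mature epithelial and vascular basement membranes, had ratios of 0.08 and 0.35 (mean 0.21 ± 0.20, SD, n = 2). Its SD was nearly as large as its mean, and in the authors' deposited table its mean was -0.22. Lama4, the α chain of blood vessels and mesenchymal cells, had ratios of -0.21 and -0.12 (mean -0.16 ± 0.060, SD, n = 2), and a mean of 0.00071 in the authors' deposited table. Lama4 was the laminin chain with the lowest mean ratio. Lama2, the α chain around muscle and nerve, had ratios of -0.04 and -0.08 (mean -0.06 ± 0.032, SD, n = 2). Its second probe gave 0.06 and -0.04, and the authors' deposited table gave a mean of 0.23, so Lama2 had no steady sign. Lama3, the α chain of the hemidesmosomal laminin, had opposite signs on the arrays (0.12 and -0.03), as did its second probe (0.29 and -0.25).

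The β chains all had small ratios. Lamb1, the β chain of most embryonic laminins, had ratios of 0.08 and 0.23 (mean 0.15 ± 0.10, SD, n = 2). Lamb3, the β chain of the hemidesmosomal laminin, had ratios of 0.17 and 0.03 (mean 0.10 ± 0.096, SD, n = 2), and a mean of -0.27 in the authors' deposited table. Lamb2, the β chain of muscle, nerve and glomerular basement membranes, had opposite signs (0.06 and -0.01). Apart from Lamc3, the adjusted p of laminin chains was 0.791 or more (limma, Benjamini-Hochberg).

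Integrin subunits had smaller ratios than Lamc3 throughout, and 0 of 21 reached 1.5-fold on both arrays. By the matrix they bind, the laminin-binding α subunits came first. Itga6, the partner of β4 in hemidesmosomes and of β1 elsewhere, had ratios of 0.08 and 0.29 (mean 0.18 ± 0.15, SD, n = 2), and a mean of -0.0063 in the authors' deposited table. Itga3, a laminin receptor of epithelia, and Itga7, the laminin receptor of muscle, had opposite signs, at 0.02 and -0.10 and at 0.23 and -0.12. The list's median ratio was 0.08 on array 1 and -0.10 on array 2. So none of the laminin receptors went with Lamc3 in size.

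The collagen-binding α subunits did not move together either. Itga1 had ratios of -0.20 and 0.02, and Itga10, found mostly in cartilage, -0.38 and 0.07. The second Itga10 probe gave -0.14 and -0.04, lower on both arrays. Itga11, found in mesenchymal cells, had ratios of 0.09 and 0.01 and a mean of -0.14 in the authors' deposited table. Itga2, the fourth of this list, was not well above background in any RNA. Itga2 is thus a gene for which no ratio can be read from these arrays.

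The α subunits that bind the RGD motif of fibronectin and similar ligands were mostly on the low side. Itga8, the mesenchymal receptor for nephronectin, had levels of 14.40 and 14.45 in controls and 14.14 and 14.28 in Gata2cKO RNA. The Gata2cKO levels were below both controls, by 0.26 and 0.17 on the log2 scale (mean ratio -0.22 ± 0.065, SD, n = 2; adjusted p = 0.760, limma). Itga5, the fibronectin receptor, had ratios of -0.16 and -0.12 (mean -0.14 ± 0.024, SD, n = 2), and a mean of 0.21 in the authors' deposited table. Itga2b, the platelet subunit that binds fibrinogen, had ratios of -0.14 and -0.14 and a mean of 0.12 in that same authors' deposited table. Itgav, which pairs with several β subunits and activates TGFβ, was on the other side, with ratios of 0.27 and 0.13 (mean 0.20 ± 0.097, SD, n = 2). Its second probe gave 0.07 and 0.10. With 3 lower and 1 higher, the list's median was -0.14, but 0.15 in the authors' deposited table.

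Itga4 and Itga9 form a branch of their own among α subunits and bind VCAM1, fibronectin, tenascin or osteopontin. Itga4 had levels of 12.00 and 11.93 in controls and 12.25 and 12.35 in Gata2cKO RNA. Both Gata2cKO levels were above both controls, with ratios of 0.25 and 0.41 (mean 0.33 ± 0.12, SD, n = 2), or 1.26-fold. The adjusted p was 0.588 (limma, Benjamini-Hochberg), rank 899 by p. The second Itga4 probe was well above background on 1 array only and gave -0.02 and 0.12. In the authors' deposited table Itga4 had 1.04 and 1.01, past 1.5-fold on both arrays. Itga9 had ratios of 0.11 and 0.30 (mean 0.21 ± 0.13, SD, n = 2).

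Integrins of leukocytes were detected in part: 4 of the 8 genes in the list were tested. Itgal, the α subunit of LFA-1, had ratios of -0.32 and -0.13 (mean -0.23 ± 0.13, SD, n = 2). Itgb2, the β subunit it shares with the other β2 integrins, had ratios of -0.13 and -0.12 (mean -0.13 ± 0.0041, SD, n = 2). Itgb7, the β subunit of gut-homing lymphocytes, had opposite signs, at 0.14 and -0.02. Itgad, Itgae, Itgax and Itgb2l were not well above background.

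Itgam, the α subunit of the macrophage integrin Mac-1, was the one gene of this list that was higher on both arrays, and its probes disagreed. The tested probe, the brightest of 3, gave 0.30 and 0.22 (mean 0.26 ± 0.059, SD, n = 2; adjusted p = 0.701, limma). Probe 2 gave 0.13 and 0.04, and probe 3 gave 0.06 and -0.13. The tested probe begins with a run of 20 bases of repeated CA, shown above in capitals, while the next longest such run in any probe of these genes is 4 bases. On the whole array 22 probes (0.0558%) had a CA run of 20 bases or more. All 22 were well above background. All were also higher on both arrays, against 27% of all genes tested, with median ratios of 0.29 and 0.22. The Itgam probe, 1 of these 22, therefore lay near their median on both arrays, and the part of the repeat in its ratio was not tested. With the mean of the 3 probes in place of the brightest, Itgam had a ratio of 0.10.

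Among the β subunits outside leukocytes, Itgb1 had the widest gap between the arrays of all members tested. Itgb1, the partner of most α subunits listed here, had levels of 15.64 and 15.50 in controls and 15.09 and 15.77 in Gata2cKO RNA. The female Gata2cKO RNA was the lowest of the 4 and the male one the highest, so that the groups overlapped. The ratios were -0.55 and 0.27 (mean -0.14 ± 0.58, SD, n = 2), and the second probe, in another stretch of the gene, gave -0.46 and 0.13. Itgb6, the epithelial partner of αv, had ratios of 0.28 and 0.14 (mean 0.21 ± 0.10, SD, n = 2), and its second probe gave 0.30 and 0.23. In the authors' deposited table, however, Itgb6 had a mean of -0.19. Itgb4, the hemidesmosome subunit, had opposite signs, at -0.11 and 0.22. Itgb3, the β subunit of platelets that also pairs with αv, had ratios of -0.02 and -0.22, and Itgb5, another partner of αv, -0.09 and -0.18. Itgb8 was not well above background.

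The 5 genes named after an integrin were kept apart, since they encode no subunit. Itgb1bp1, whose product ICAP-1 binds the tail of β1, had ratios of -0.05 and -0.32 (mean -0.19 ± 0.19, SD, n = 2). The second Itgb1bp1 probe gave -0.245 and 0.0027, of opposite sign on the arrays. Itgb1bp2, which encodes melusin, a protein of striated muscle, had ratios of -0.41 and -0.06 (mean -0.24 ± 0.25, SD, n = 2), and a mean of 0.13 in the authors' deposited table. Itgb3bp, a centromere protein, and Itgbl1, a secreted protein with integrin-like repeats, had opposite signs, at 0.28 and -0.16 and at 0.19 and -0.11. The second Itgb3bp probe gave 0.33 and 0.21, higher on both arrays. Nmrk2, a nicotinamide riboside kinase, was not well above background. None of the 4 tested probes had a mean ratio larger than its SD between the arrays.

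**Figure D3:**
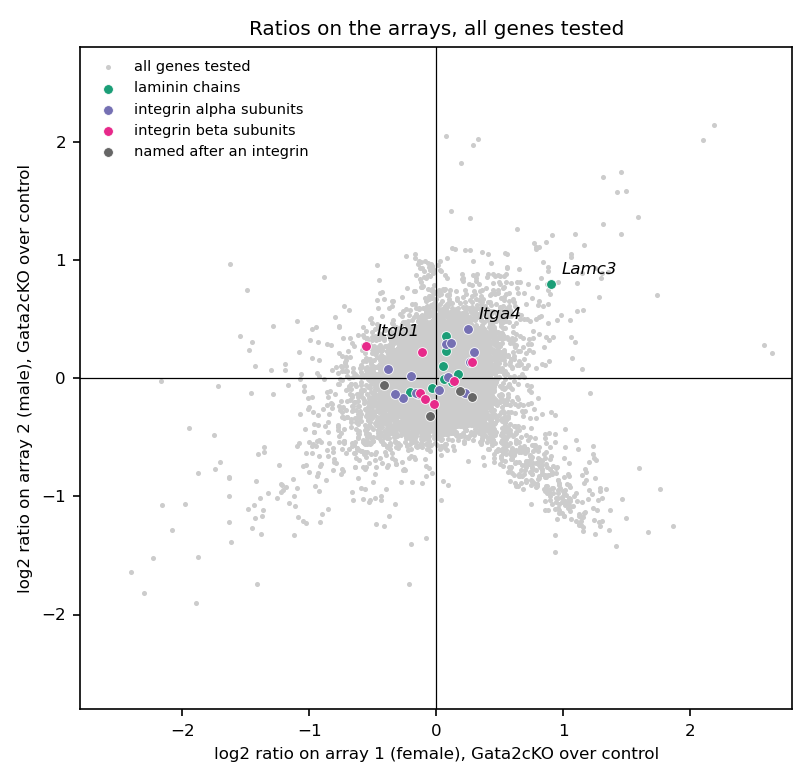
Log2 ratio of Gata2cKO over control on array 1 (x axis, female) against array 2 (y axis, male) for the 20503 genes tested (grey), with laminin chains, integrin α and β subunits and genes named after an integrin in colour. Lamc3 lies at 0.90 and 0.80 at the edge of the grey points in the upper right, Itga4 at 0.25 and 0.41 inside them, and Itgb1 on the left at -0.55 and 0.27.

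As families, laminins were on average slightly above integrins. Of the 11 laminin chains, 7 were higher on both arrays, 2 lower and 2 of opposite sign, with a median ratio of 0.08 on array 1 and 0.10 on array 2. Of the 21 integrin subunits, 7 were higher, 7 lower and 7 of opposite sign, with medians of -0.02 and 0.01. Among all genes tested, 27% were higher, 26.2% lower and 46.8% of opposite sign, and the median was 0.00016 on array 1 and 0.0041 on array 2. The laminin median exceeded the integrin median by 0.09 on each array. This difference is a description without a test. The sign of the laminin median held under the 8 alternatives, but its size did not (0.02 in the authors' deposited table). The integrin median, -0.04 for the mean of both arrays, became 0.0013 without the filter on dim probes.

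By the mean of both arrays, probes of the same gene mostly went the same way. Of the 11 members with several expressed probes, 9 had mean ratios of 1 sign, and the exceptions were Itgam and Lama2. On array 2 taken alone, the probes of Itga10, Itgb1bp1 and Itgb3bp differed in sign as well. The largest range between probes of a gene was 0.29, for Itgam.

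The genes that work with laminins and integrins outside these families were read off the same fit. Their counts stand against 27% of all genes higher on both arrays, 26.2% lower and 46.8% of opposite sign. Basement membrane partners of laminin (collagen IV, nidogens, perlecan, agrin and others) were 8 higher on both arrays, 1 lower and 5 of opposite sign among the 14 of 17 tested, with a median ratio of 0.08. Col4a1, a chain of the main network-forming collagen, had ratios of 0.19 and 0.37, and Col18a1, a basement membrane collagen, 0.10 and 0.30. Col4a3, Col15a1 and Ntn4 were not well above background. The 7 other laminin receptors had 2 higher, 1 lower and 4 of opposite sign, with a median of -0.0048, which became 0.08 in the authors' deposited table. Of these, the syndecan Sdc2 had ratios of 0.31 and 0.40 (mean 0.35 ± 0.065, SD, n = 2; adjusted p = 0.513, limma), and the hyaluronan receptor Cd44 -0.16 and -0.35.

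Other ligands of integrins were more often lower than higher, while 26.2% of all genes were lower on both arrays and 27% higher. Whether the counts differ from these shares was not tested. Of the 20 of 21 tested, 2 were higher on both arrays, 9 lower and 9 of opposite sign, with a median of -0.07, which became -0.0012 in the authors' deposited table. Vcam1, a ligand of α4 and α9, had ratios of -0.55 and -0.43 (mean -0.49 ± 0.080, SD, n = 2; adjusted p = 0.297, limma). Ccn3, a matricellular protein, had ratios of -0.24 and -0.48. Vtn was not well above background. Of the 27 genes of the integrin adhesion complex, 3 were higher, 11 lower and 13 of opposite sign, with a median of -0.05, which became 0.02 in the authors' deposited table. Lims2, a partner of integrin-linked kinase, had ratios of -0.34 and -0.10, and Fermt3, the kindlin of blood cells, -0.18 and -0.23. Of these 4 lists, 0 genes passed an adjusted p of 0.05 and 0 were 1.5-fold on both arrays. At an unadjusted p under 0.05 (limma) were 1, 1, 5 and 0 of them, against the 7.17% of all genes.

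**Figure D4:**
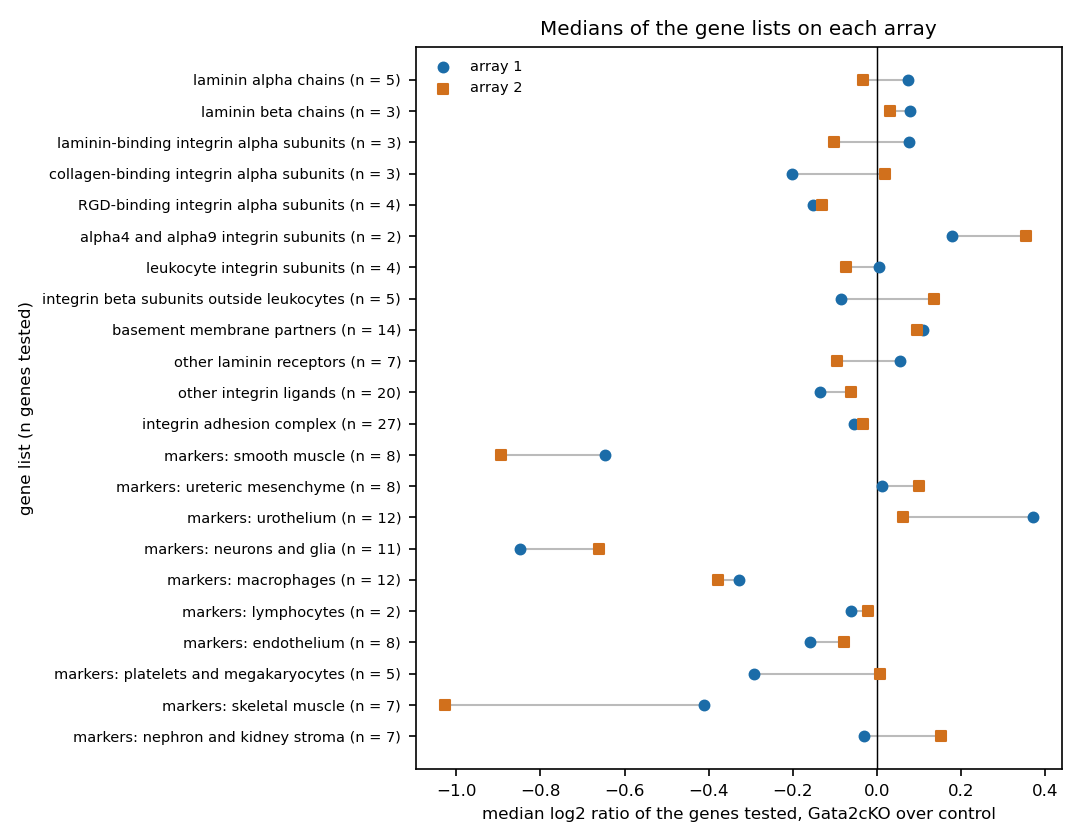
Median log2 ratio of Gata2cKO over control of each gene list on array 1 (circles) and array 2 (squares), with the number of genes tested in brackets. The lists of laminins, integrins and their partners lie between -0.20 and 0.36, while the markers of smooth muscle and of neurons and glia lie between -0.89 and -0.65.

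Markers of the cells that carry these proteins were not level between the groups, and their part in the members' ratios was not tested. The shares to set beside their counts are 27% of all genes higher on both arrays, 26.2% lower and 46.8% of opposite sign. A summed intensity adds the linear levels of different probes, so bright probes weigh most in it. Sums can thus be compared between RNAs but not between lists. All 8 smooth muscle markers were lower on both arrays (median -0.77), and their summed intensity was 76560 and 80890 in controls and 58310 and 55090 in Gata2cKO RNA. Smooth muscle bears, among other members, Itga8, Itga7, Lama2 and Lama4, of which Itga7 had opposite signs on the arrays and Lama2 no steady sign. Lamb2, also a chain of muscle, and Itgb1, the partner of most α subunits, had opposite signs too. These genes are only some of the members in smooth muscle. Among the 36 members tested, from all cell types, 14 were higher on both arrays and 11 lower. Of the neuron and glia markers 10 of 11 tested were lower (median -0.75), 1 of them past the adjusted threshold (limma), and the sums were 37790 and 27920 against 17950 and 17950. Skeletal muscle markers, with 6 of 7 tested lower, summed to 11990 and 10540 against 8794 and 5633 (median -0.79), and Ckm was not well above background. These stand beside Itga7 and Itgb1bp2.

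Macrophage markers were lower in 10 of 12 (median -0.32), with sums of 67770 and 66340 in controls and 53970 and 52820 in Gata2cKO RNA. They stand beside Itgal, Itgam and Itgb2. Lymphocyte markers were mostly undetected (2 of 6 tested; Cd3g, Cd79a and Il7r were among those not well above background), with sums of 6618 and 6343 against 6464 and 6209. Platelet and megakaryocyte markers, 5 of 7 tested without Gp1ba and Gp6, summed to 18370 and 17240 against 15180 and 14620, with 1 lower and 1 higher on both arrays. These stand beside Itga2b and Itgb3.

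Urothelial markers leaned up, with 7 of 12 higher on both arrays and 0 lower (median 0.19, but -0.19 in the authors' deposited table). Their sums were 200900 and 235600 in controls and 235500 and 253700 in Gata2cKO RNA. They stand beside Lama3, Lama5, Lamb3, Itga3, Itga6, Itgb4 and Itgb6, which epithelial cells make, and of which Lama3, Itga3 and Itgb4 had opposite signs on the arrays. Endothelial markers, which stand beside Lama4 and Lama5, had 4 lower and 1 higher of 8, with sums of 89480 and 83890 against 81230 and 85200 (median -0.10, but 0.18 in the authors' deposited table). Markers of the ureteric mesenchyme, in which the Cre allele acts, had 3 higher and 2 lower of 8, with sums of 236900 and 207400 against 231500 and 244300. Their median ratio was 0.04, -0.00079 with median centring and 0.54 in the authors' deposited table. Markers of nephrons and kidney stroma, tissue that a dissected ureter should lack, had 7 of 8 well above background, with sums of 69350 and 59720 against 68160 and 61940, and only Nphs1 undetected. Their median was 0.06, and -0.15 in the authors' deposited table. Of the 7, 2 were higher on both arrays, 2 lower and 3 of opposite sign. Level sums hid differences between single markers, since Six2 had ratios of 0.23 and 1.09 and Ret -0.96 and -0.45.

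**Figure D5:**
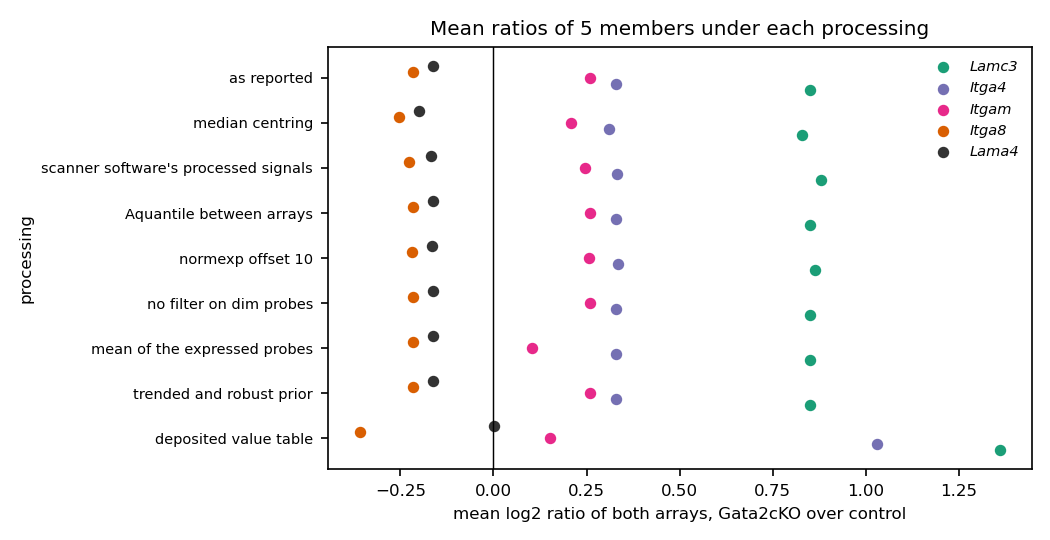
Mean log2 ratio of both arrays, Gata2cKO over control, for Lamc3, Itga4, Itgam, Itga8 and Lama4 as reported and under each of the 8 alternative ways of processing. Lamc3 stays between 0.83 and 1.36 and Itga8 below 0, Itga4 is between 0.31 and 0.33 except for 1.03 in the authors' deposited table, and Lama4 reaches 0.00071 there.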

How the data were processed

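The array was Agilent design 026655, with probes placed on mm9, per the file headers. Spots were read with Agilent Feature Extraction 10.7.3.1, per the submitters' processing notes. The deposited scanner files hold mean signal and median background as intensity on a linear scale, and processed signals with their log10 ratio (red divided by green). The authors' deposited value table was treated as a score: a signed fold whose columns each had a median of 1, and in which 28% (array 1) and 28.3% (array 2) of probes stood at 1. The sources used here do not give its making or centring. It was oriented by its correlations with the scanner ratios (r = 0.443 and 0.376 over probes), and it was used as a log2 value in an alternative alone.

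Control spots (1224 positive and 153 negative of 44397) and outlier spots (255 and 178) were left out, and 0 spots were saturated. Background was corrected by normexp (offset 50), ratios were normalized by loess (span 0.3), array 2 was turned, and repeat spots were averaged. Probes well above background on both arrays in a group (25672) were kept, and each gene was represented by its brightest probe. Names came from RefSeq accessions for 26412 probes and from the files for 13017. Ratios were tested against 0 with limma 3.58.1 in R 4.3.3 (lmFit, eBayes, two-sided, Benjamini-Hochberg over 20503 genes), with 1 residual and 4.68 prior degrees of freedom. The functions were tested on simulated arrays. Levels were taken per channel after loess and Aquantile. Figures were drawn with matplotlib 3.10.9.

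The members and lists were chosen with earlier results of these data known. The rule for names took every expressed laminin chain, integrin subunits with a mean ratio of at least 0.3 in size and the same sign on both arrays, and for each companion list genes past the threshold or, as here, the 2 largest means of 1 sign. The other integrin subunits were named after their values were seen, so that each member is accounted for. Probe sequences were meant to be those in coding sequence, which could not be checked, so only 30 bases of each are shown, and those of Itga4, Itgb1 and Itgam were added after their values were seen. Alternatives were median centring, processed signals, Aquantile, an offset of 10, no filter on dim probes, the mean of a gene's probes, a trended and robust prior, the deposited table, and each array left out. Values of 1 laminin chain and the names of 2 undetected markers are not reported here, though the counts and medians of lists include them.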

Additional observations from a re-analysis of the deposited data

Results flagged for a closer look

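In 11 of the 36 genes the ratio had opposite signs on the female and the male array. The difference was not tested, and sex cannot be told apart from dye orientation. Array 1 minus array 2, on the log2 scale, it was largest for Itgb1 (-0.82), where both probes had it. It was -0.45 for Itga10, whose second probe was lower on both arrays, at -0.14 and -0.04. For Itgb3bp it was 0.44, and the second probe was higher on both arrays, at 0.33 and 0.21. Itga7 had a difference of 0.35 and Itgb4 of -0.33. For Itgbl1 it was 0.29 and for Itga1 -0.22. The remaining genes had smaller gaps, of 0.16 for Itgb7, 0.15 for Lama3, 0.12 for Itga3 and 0.066 for Lamb2. Over all genes tested, 46.8% had opposite signs on the arrays, with a median gap of 0.17.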

How the results depend on the processing

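Of the 25 members with 1 sign on both arrays, 14 kept the sign of their mean ratio in all 8 alternatives. Of these 14, Itgav (0.43 and -0.06) and Lamb1 (0.26 and -0.22) had opposite signs on the arrays in the authors' deposited table. The mean ratios of the other 11 turned in that table alone. Among these, the means there were -0.14 for Itga11, 0.12 for Itga2b, 0.21 for Itga5, -0.0063 for Itga6, 0.13 for Itgb1bp2, -0.19 for Itgb6, 0.23 for Lama2, 0.00071 for Lama4, -0.22 for Lama5 and -0.27 for Lamb3. The cause was not tested. Against 18 genes past an adjusted p of 0.05 (limma), there were 0 with median centring (491 at an unadjusted p under 0.05), 173 with processed signals, 42 with an offset of 10, 54 without the filter, 376 with a trended and robust prior and 0 in the deposited table (972 unadjusted). Of the members, 1 passed with processed signals and 1 with the trended prior, Lamc3 in both. At 1.5-fold on both arrays the deposited table had 2 members, Lamc3 and Itga4, and 209 genes were higher and 184 lower there, against 56 and 90. The laminin median of 0.10 became 0.059 with median centring and 0.015 in the deposited table, and was 0.0752 to 0.101 with 1 array left out. The integrin median of -0.04 became 0.0013 without the filter and -0.12 in the deposited table, and -0.0189 to 0.00964 with 1 array left out. With 1 array left out, 1 member was at least 1.5-fold, and no test was possible. Each ratio is already the difference within a pair of RNAs of the same sex on 1 array, so the test of the ratios against 0 is paired. With 2 arrays, 1 for each sex and dye orientation, a ratio below the spread between arrays cannot be separated from either, and 7 members not well above background have no ratio.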
